A study of Mus musculus with 12 samples.

Results

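The SOX genes of kidney repair are a set of 8 transcription factor genes taken by symbol, Sox4, Sox7, Sox9, Sox11, Sox12, Sox13, Sox17 and Sox18, out of 23238 gene symbols measured. All 8 were in the files, and all 8 passed the filter on low values that left 13943 genes for testing. RNA came from kidneys of C57BL/6 mice in 3 groups of 4 libraries each: mice with chronic kidney disease kept on time restricted feeding (CKD TRF), mice with the disease and no such label (CKD), and control mice (Control). Time restricted feeding means that food is offered during part of the day only. The labels give neither the way the disease was induced nor the feeding hours, the diet, the age, the sex or the hour of sampling. They also do not say that each library is a separate animal, so p-values measure the spread between libraries, which may be technical.

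SOX proteins bind DNA through a high mobility group (HMG) box, which bends the helix at short AT-rich sites. Sox4, Sox11 and Sox12 form the SOXC group of embryonic progenitor cells. Sox9, of the SOXE group, acts in cartilage and in the developing collecting system and nephron, and in mice it is switched on in tubule cells that repair themselves after injury. Sox13, of the SOXD group, has no activation domain of its own. Sox7, Sox17 and Sox18 form the SOXF group of blood and lymph vessel endothelium.

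The 3 SOXC genes are shown with their promoters because all 3 were called higher in CKD kidneys. The sequences are from RefSeq (GRCm38.p6, minus strand for all 3) and run from 250 bases before the annotated start to 50 after it. Capitals mark CCAAT or its reverse complement ATTGG, the core of the CCAAT box of many promoters. The windows lie at chr13:28953650-28953949 for Sox4, chr12:27342669-27342968 for Sox11 and chr2:152397997-152398296 for Sox12.
Sox4: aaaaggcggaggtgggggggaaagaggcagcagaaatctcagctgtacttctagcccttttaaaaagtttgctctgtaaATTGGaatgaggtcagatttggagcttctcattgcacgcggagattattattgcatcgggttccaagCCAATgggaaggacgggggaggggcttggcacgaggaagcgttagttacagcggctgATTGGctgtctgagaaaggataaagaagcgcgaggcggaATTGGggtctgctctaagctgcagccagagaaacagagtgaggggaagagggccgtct
Sox11: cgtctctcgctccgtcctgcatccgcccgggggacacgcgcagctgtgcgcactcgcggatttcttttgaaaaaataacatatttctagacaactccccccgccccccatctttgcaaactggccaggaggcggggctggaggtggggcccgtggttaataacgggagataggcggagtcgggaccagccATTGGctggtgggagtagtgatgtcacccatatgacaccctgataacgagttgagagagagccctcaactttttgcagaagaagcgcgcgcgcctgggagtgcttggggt
Sox12: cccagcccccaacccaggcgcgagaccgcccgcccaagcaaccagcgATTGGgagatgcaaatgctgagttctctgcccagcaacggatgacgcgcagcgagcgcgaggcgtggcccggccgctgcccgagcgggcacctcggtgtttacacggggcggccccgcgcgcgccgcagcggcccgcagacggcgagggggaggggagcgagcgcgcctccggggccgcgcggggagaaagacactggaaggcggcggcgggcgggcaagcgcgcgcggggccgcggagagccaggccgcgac
The Sox4 window held 4 CCAAT matches on both strands together, and those of Sox11 and Sox12 held 1 each, while 37.4% of 32851 mouse promoters of that length held at least 1. The GC box GGGCGG, present in 35.7% of promoters, occurred 0 times in Sox4, 2 times in Sox11 and 4 times in Sox12, overlapping matches counted. GC content was 52.0% for Sox4, 58.7% for Sox11 and 76.7% for Sox12, against a median of 52.7% over all promoters. TATAAA (13.6% of promoters), AACAAT, a core bound by SOX proteins (10.7%), and the E-box CACGTG (7.15%) were in none of the 3 windows. Both strands were searched, and the CCAAT and GC box matches did not overlap each other. The RefSeq table used here matched 4 of the 8 genes, and the fourth, Sox13, held none of the 5 motifs.

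Levels are given as scaled reads, the number obtained by undoing the log2 of the deposited values and taking off the added 1. The libraries held 14145440 to 17209317 reads in CKD TRF, 14512890 to 16857373 in CKD and 10989856 to 12810457 in Control. The limit that a count of 0 allows, 3 reads, was worth 0.179 to 0.215 scaled reads in CKD TRF, 0.168 to 0.197 in CKD and 0.255 to 0.306 in Control. It covers counting error only. Kidney identity was checked with 12 proximal tubule genes, whose summed level was 39484 to 47098 scaled reads in CKD TRF, 34662 to 41614 in CKD and 62132 to 80501 in Control. Most of that sum was 1 gene, Kap, which averaged 28228 scaled reads in CKD TRF, 26059 in CKD and 49923 in Control. In 5 libraries, CKD 2, CKD 4 and CKD TRF 1, 3 and 4, the summed level of 6 fat markers (Adipoq, Plin1, Cidec, Cfd, Lep and Retn) was 66.5 to 386 scaled reads, against at most 11.7 in the other 7. Results that change without these 5 libraries are also given without them. That leaves CKD 1 and 3 and, of CKD TRF, CKD TRF 2 alone, which is then assumed to vary like the other groups, so such a value of CKD TRF rests on 1 library. A change is the difference between group means of log2(scaled reads + 1), with the standard error and the Benjamini-Hochberg adjusted p of limma over all 13943 genes. Because of the added 1, differences of genes near 0 are understated.

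Diseased kidneys without restricted feeding were first set against those of control mice. Sox4, Sox9, Sox11, Sox12 and Sox17 were higher in CKD, and each of them was higher in all 4 CKD libraries than in any Control library. Sox9 and Sox11 had the largest changes of the 8, at 2.77 ± 0.25 and 2.85 ± 0.25 on the log2 scale. Sox7, Sox13 and Sox18 did not pass the test. In limma, 45.4% of all tested genes were called in this comparison, 23.6% higher and 21.8% lower, and 20.3% were higher without overlap, so a call by itself was common. The scaled reads of a library summed to 987841 to 1025834 in CKD TRF, 941189 to 978419 in CKD and 1076773 to 1180101 in Control. These ranges did not overlap, so scale and group cannot be fully told apart. In numbers, 3297 genes were higher and 3036 lower as deposited, with 2650 and 3918 after median centring, which shifted the median change by -0.10, and 4989 and 1547 with equal sums, which shifted it by 0.20. The 5 SOX genes called higher were called under both of these scalings. The median change was 0.75 over the 8 SOX genes and 0.02 over all tested genes.

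The comparison of CKD TRF with CKD asked whether these transcripts differ with restricted feeding within the disease. No SOX gene was called, and neither was any other gene: limma called 0 of 13943 (0%), limma voom on recovered reads called 0, and 889 had an unadjusted p under 0.05. Sox4 and Sox11 were lower in all 4 CKD TRF libraries than in any CKD library, which 2.13% of all tested genes were. The median change was -0.24 over the 8 genes and -0.01 over all. The 8 genes were chosen with earlier results of these data known. Such shares and medians, here and in the comparisons with Control, are therefore descriptions and no test of the set. In the comparison of CKD TRF with Control, Sox4, Sox9, Sox11, Sox12 and Sox17 were higher and Sox18 was lower by the same test, where 37.5% of all genes were called, 19.5% higher and 17.9% lower. Sox4, Sox9, Sox11 and Sox17 were higher without overlap, as were 16.3% of all genes. The split of all calls was 2724 higher and 2501 lower as deposited, 2296 and 3227 after median centring, and 3656 and 1431 with equal sums. The 3 comparisons share libraries in pairs, so their values are set side by side and do not stand as independent results.

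**Figure D1:**
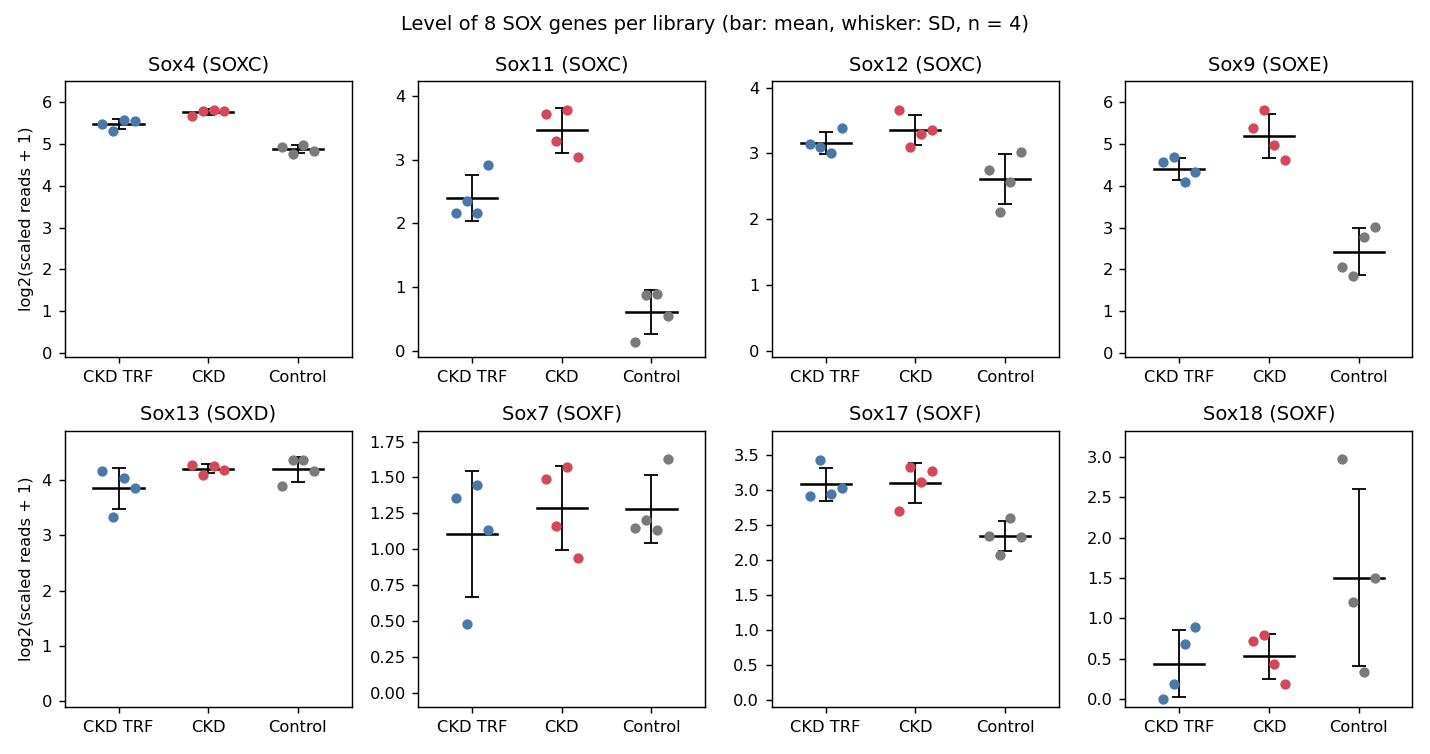
Level of each of the 8 SOX genes in each of the 12 libraries, on the deposited log2(scaled reads + 1) scale (vertical axis), by group; points are libraries and bars are group means with SD. Sox4, Sox9, Sox11, Sox12 and Sox17 have all CKD points above all Control points, while Sox7 and Sox13 overlap across the groups and 1 Control point of Sox18 stands well above the rest.

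Sox11, a SOXC factor of embryonic neurons and mesenchyme, had the largest change of the 8 in CKD against Control. It is a gene of 1 exon at chr12:27334264-27342574 (mm10, GENCODE annotation, minus strand). Its levels were 3.51, 4.11, 3.46 and 6.57 scaled reads in CKD TRF 1 to 4, 12.2, 8.86, 12.7 and 7.21 in CKD 1 to 4, and 0.102, 0.829, 0.851 and 0.457 in Control 1 to 4. All CKD TRF libraries lay below all CKD libraries and above all Control libraries. Behind these stood 49 to 100 reads per CKD TRF library, 110 to 219 per CKD library and only 1 to 10 per Control library. The change was 2.85 ± 0.25 in CKD against Control (limma adjusted p = 2.5e-08), and 27 of 13943 genes had a larger one. Between CKD TRF and CKD it was -1.06 ± 0.25, with an unadjusted limma p of 3.3e-04 and an adjusted p of 0.705. Although that did not pass, only 2 tested genes had a more negative change. In CKD TRF against Control the change was 1.79 ± 0.25 (limma adjusted p = 1.2e-05). Its size depends on how values near 0 are treated. With 5 added to the scaled reads it was 0.75 in CKD TRF and 1.44 in CKD against Control, and in limma voom 3.07 in CKD TRF and 4.30 in CKD. Sox11 was called against Control under all 22 alternatives of each comparison, one of which has 1 CKD TRF library.

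Sox4 is the SOXC factor with the widest expression in epithelia and progenitor cells. The gene has 1 exon at chr13:28948919-28953713 (minus strand). Its levels were 44.0, 39.0, 46.8 and 45.5 scaled reads in CKD TRF, 49.9, 54.3, 55.0 and 54.4 in CKD, and 29.3, 26.1, 30.6 and 27.5 in Control. The 3 groups did not overlap at any point, with CKD highest and Control lowest. Its change was smaller than that of Sox11 but more precise, at 0.89 ± 0.10 in CKD against Control (limma adjusted p = 1.3e-06) and 0.61 ± 0.10 in CKD TRF against Control (limma adjusted p = 1.4e-04). In CKD TRF against CKD it was -0.28 ± 0.10 (unadjusted p = 0.0142, limma adjusted p = 0.71). Without the 5 libraries with fat RNA, with only CKD TRF 2 left of its group, the change against Control was 0.45 ± 0.20 (limma adjusted p = 0.172). The long noncoding gene Gm26735 overlaps the 3′ end of Sox4 on the other strand. It was not analysed here, and the strand setting of the counting is not given in the sources used here, so its reads and those of Sox4 cannot be told apart.

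Sox12, the weakest activator of the SOXC group in mouse, had the smallest change of the 3 in value. It lies at chr2:152393611-152398063 (minus strand). Its levels were 7.81, 7.56, 6.97 and 9.46 scaled reads in CKD TRF, 11.6, 7.56, 8.82 and 9.25 in CKD, and 5.72, 3.32, 4.93 and 7.12 in Control. CKD and Control did not overlap, but the lowest CKD TRF library lay below the highest Control library. The change was 0.74 ± 0.20 in CKD against Control (limma adjusted p = 0.0054), -0.20 ± 0.20 in CKD TRF against CKD (0.897) and 0.54 ± 0.20 in CKD TRF against Control (0.0394). The call in CKD was lost under quantile normalization only, at 0.49 (limma adjusted p = 0.0523). The call in CKD TRF held under 8 of 22 alternatives and was lost, among others, without Control 2 (0.37, limma adjusted p = 0.134).

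Genes known as SOXC targets, mostly from work in mouse embryos and neurons, were set beside these 3 factors. Of 6 listed targets 4 were tested, and 3 of the 4 were called higher in both CKD TRF and CKD against Control, with none lower. Of all tested genes 19.5% were called higher in CKD TRF and 23.6% in CKD. Dbn1, an actin-binding protein, rose by 0.90 ± 0.17 in CKD TRF (limma adjusted p = 2.8e-04) and 1.01 ± 0.17 in CKD (5.8e-05). Tead2, the Hippo pathway factor that SOXC proteins activate in mouse embryos, rose by 0.68 ± 0.20 in CKD TRF (limma adjusted p = 0.0132) and 0.93 ± 0.20 in CKD (0.00102). Marcksl1, another actin regulator, rose by 0.73 ± 0.22 in CKD TRF (limma adjusted p = 0.0114) and 0.82 ± 0.22 in CKD (0.00438). Stmn1, the remaining tested target, went the other way without a call. It stood at -0.14 ± 0.12 in CKD TRF and -0.25 ± 0.12 in CKD (limma adjusted p = 0.407 and 0.106). Against Control, the median change of the 4 was 0.71 in CKD TRF, where that of all tested genes was 0.01, and 0.88 in CKD, where that of all was 0.02. In CKD TRF against CKD none was called and the median was -0.10.

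**Figure D2:**
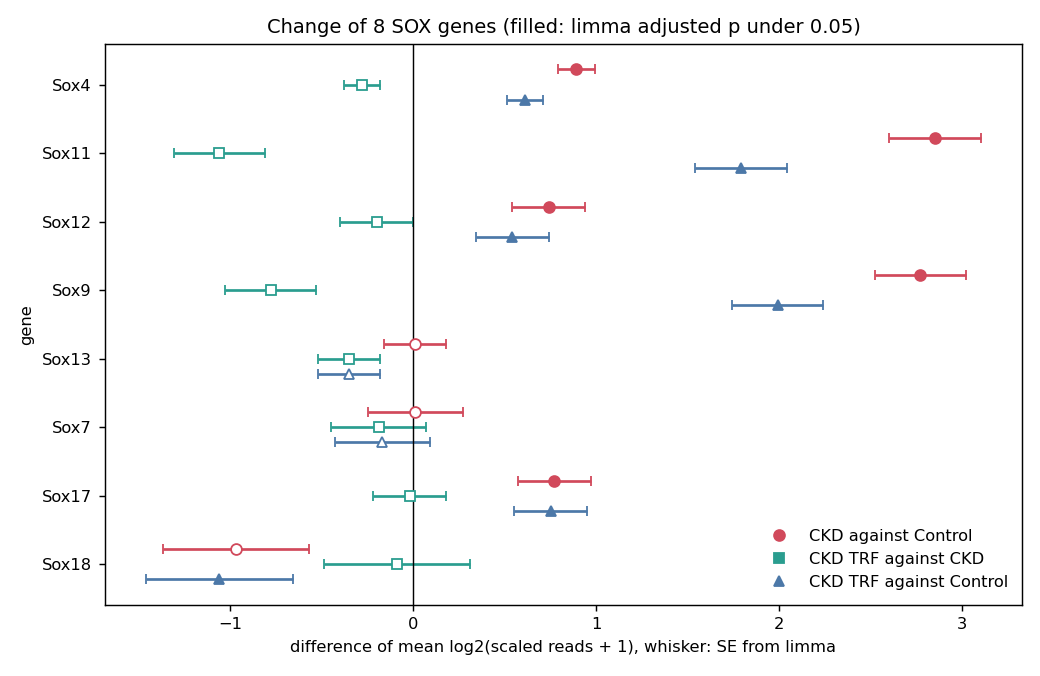
Log2 change of each SOX gene with its limma standard error in the 3 comparisons (horizontal axis, log2 of scaled reads + 1), with filled points for those past an adjusted p of 0.05. Sox9 and Sox11 lie furthest to the right in both comparisons with Control and furthest to the left in CKD TRF against CKD, where no point is filled.

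Sox9, the SOXE factor of tubule repair, ranged widely within CKD in scaled reads, though on the log2 scale its SD was 0.27 in CKD TRF, 0.52 in CKD and 0.57 in Control. Its 3 exons lie at chr11:112782224-112787760 (plus strand). Its levels were 22.6, 24.7, 15.9 and 19.1 scaled reads in CKD TRF, 40.8, 55.1, 30.4 and 23.4 in CKD, and 3.16, 2.58, 5.87 and 7.12 in Control. Both diseased groups lay wholly above Control, while the lowest CKD library, CKD 4, fell inside the range of CKD TRF. The gene was supported by 267 to 373 reads per CKD TRF library, 357 to 983 per CKD library and 28 to 78 per Control library. Its change was 2.77 ± 0.25 in CKD against Control (limma adjusted p = 6.0e-08), where 32 genes had a larger one, and 1.99 ± 0.25 in CKD TRF against Control (limma adjusted p = 5.8e-06). In CKD TRF against CKD the change was -0.78 ± 0.25 (unadjusted p = 0.00607, limma adjusted p = 0.705). Only 25 tested genes had a more negative one, but the groups overlapped. Sox9 was called under all 22 alternatives in each comparison with Control, one of which has 1 CKD TRF library. Without the 5 libraries with fat RNA it stood at 2.75 ± 0.31 in CKD against Control (limma adjusted p = 4.0e-05). With only CKD TRF 2 left of its group and the spread taken from the other libraries, it stood at 2.26 in CKD TRF against Control and -0.49 in CKD TRF against CKD.

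Within CKD, Sox9 and Sox11 ordered the libraries alike except for CKD 2 and CKD 3. CKD 2 was highest for Sox9 and next to lowest of its group for Sox11, and CKD 3 was highest for Sox11 and next to lowest for Sox9. CKD 1 was next to highest and CKD 4 lowest of the group for both genes. Over the 12 libraries, the deviations of both genes from their group means had a Pearson r of 0.13. Deviations of Sox4 had an r of -0.12 with those of Sox9 and -0.11 with those of Sox11. These are descriptions over libraries that share a scaling, and the small group sizes leave them imprecise.

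Targets that Sox9 is known to activate in cartilage were mostly too low to test. Of 11 listed genes, among them the collagen Col2a1 and the proteoglycan Acan, only Hapln1 and Wwp2 passed the filter on low values. Hapln1, the cartilage link protein, stood at -0.41 ± 0.31 in CKD TRF and -0.48 ± 0.31 in CKD against Control (limma adjusted p = 0.325 and 0.224). Wwp2, a ubiquitin ligase gene, stood at -0.17 ± 0.12 in CKD TRF (limma adjusted p = 0.318) and -0.19 ± 0.12 in CKD (0.222). Neither was called. Among the 9 untested genes, Col11a1, a collagen chain, was named here after its values were seen. It had 0.263 to 1.07 scaled reads in CKD TRF, 0.522 to 1.23 in CKD and 0.204 to 0.461 in Control. CKD lay above Control without overlap, as did 20.3% of all tested genes, while CKD TRF overlapped Control. The lowest Control level lay below the counting limit given above for that group (0.255 to 0.306 scaled reads). Whether Col11a1 follows Sox9 was not tested.

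Genes of injured and repairing tubules were higher beside Sox9. Of 17 tested genes 14 were called higher in CKD TRF, where 19.5% of all genes were, and 15 in CKD, where 23.6% of all were, with none lower. Their median change was 0.94 in CKD TRF and 1.08 in CKD, while that of all genes was 0.01 in CKD TRF and 0.02 in CKD. Lcn2, a secreted marker of tubule damage, stood at 11.1 to 27.0 scaled reads in CKD TRF, 16.1 to 28.9 in CKD and 0 to 1.33 in Control. The hyaluronan receptor Cd44 averaged 16.4 ± 2.71 scaled reads in CKD TRF, 24.7 ± 3.17 in CKD and 2.12 ± 0.887 in Control (SD, n = 4 each). Its change in CKD TRF against CKD was -0.56 ± 0.19 and did not pass (limma adjusted p = 0.705). Cd44 was highest in CKD, then CKD TRF, then Control, with no overlap between groups, as were Sox4 and Sox11. The share of all genes with this whole order was not counted. Other listed genes did not share it. Havcr1 stood at -0.85 ± 0.30 in CKD TRF against CKD (limma adjusted p = 0.705), but its ranges of 6.67 to 21.2 and 18.2 to 22.8 scaled reads overlapped. Krt19 went the other way, at 0.29 ± 0.22 (limma adjusted p = 0.848). In CKD TRF against CKD, 3 of the 17 tested genes were lower without overlap, where 2.13% of all tested genes were. Of 10 smooth muscle and fibroblast markers, 3 were lower without overlap as well. The summed level of the 18 listed genes was 1458 to 1689 scaled reads in CKD TRF, 1688 to 1718 in CKD and 658 to 875 in Control.

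Genes of the nephron progenitor were called about as often as other genes. Of 9 tested genes out of 16 listed, 2 were called higher and 1 lower in both CKD TRF and CKD against Control, with a median of 0.06 in CKD TRF and 0.07 in CKD. Of all tested genes 19.5% were called higher and 17.9% lower in CKD TRF, and 23.6% higher and 21.8% lower in CKD. Wnt4, the signal that turns progenitor mesenchyme into epithelium, stood at 8.02 to 20.8 scaled reads in CKD TRF, 8.30 to 21.6 in CKD and 0.307 to 2.49 in Control. It rose by 2.74 ± 0.32 in CKD TRF and 2.77 ± 0.32 in CKD against Control (limma adjusted p = 2.3e-06 and 1.2e-06). Wt1, a factor of progenitors and podocytes, rose by 0.50 ± 0.17 in CKD TRF (limma adjusted p = 0.0231) and 0.60 ± 0.17 in CKD (0.00617). Emx2, a homeobox factor of the early kidney, was lower in both, at -0.48 ± 0.11 in CKD TRF and -0.57 ± 0.11 in CKD (limma adjusted p = 0.00228 and 3.8e-04).

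**Figure D3:**
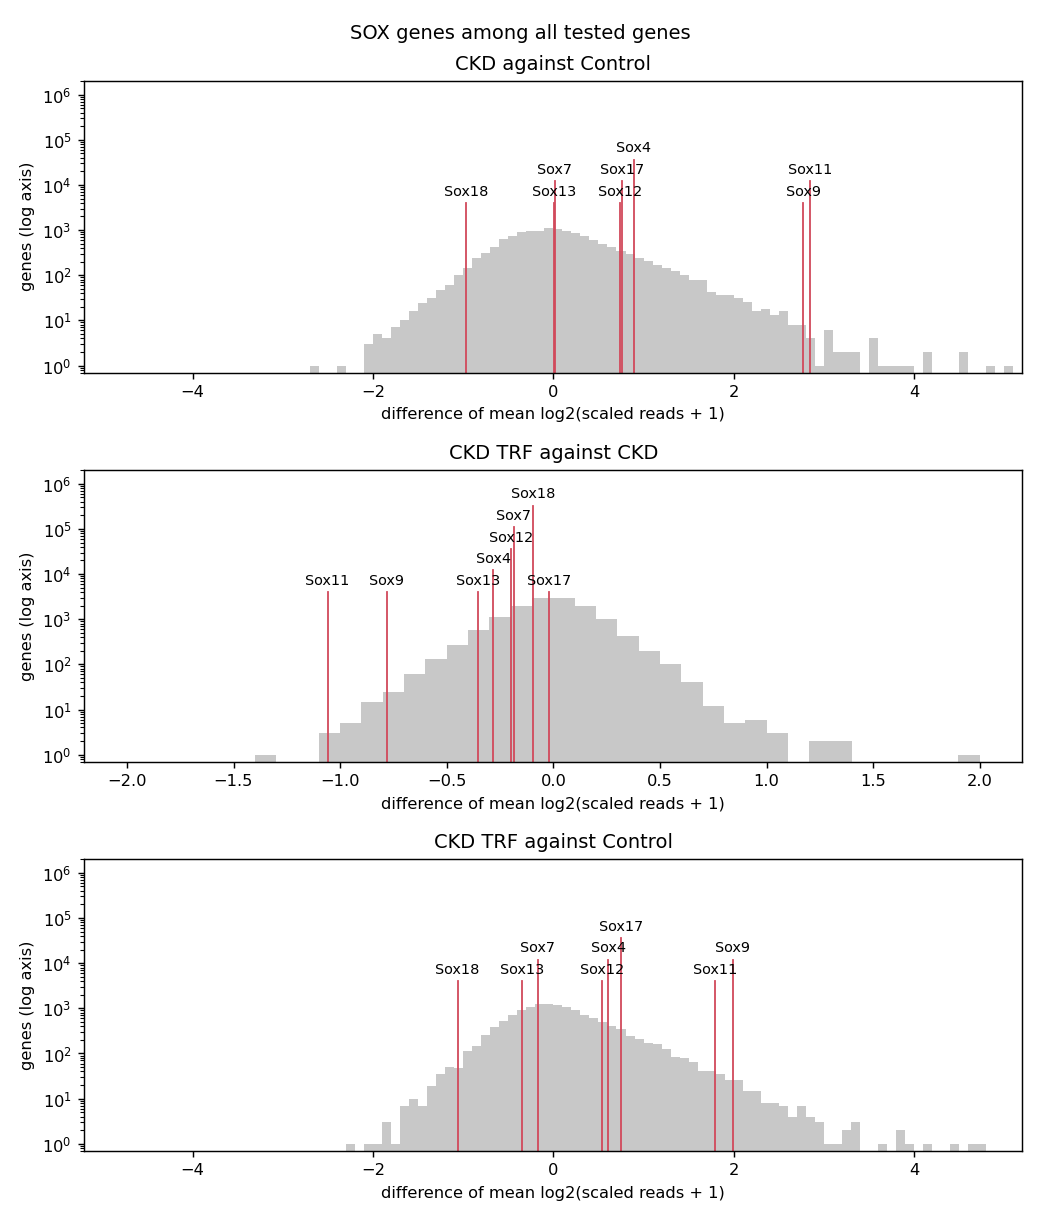
Log2 changes of the 8 SOX genes among all 13943 tested genes in each comparison, with the distribution of all genes in grey (horizontal axis, log2 change, and vertical axis, number of genes on a log scale) and a line for each SOX gene. Sox9 and Sox11 lie in the far right tail against Control and in the left tail of CKD TRF against CKD, and Sox7 and Sox13 lie near the centre in CKD against Control.

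Markers of other cell types also differed from Control. The shares of all genes to set beside the counts are 19.5% called higher and 17.9% lower in CKD TRF, and 23.6% higher and 21.8% lower in CKD. Urothelium, the lining of the renal pelvis, had 8 of 8 tested markers called higher in both diseased groups against Control, with sums of 44.0 to 153 scaled reads in CKD TRF, 37.3 to 193 in CKD and 5.61 to 16.4 in Control. Leukocyte markers were called higher for 7 of 9 tested genes in CKD TRF and 9 of 9 in CKD, with sums of 209 to 278 scaled reads in CKD TRF, 259 to 319 in CKD and 116 to 161 in Control. Smooth muscle and fibroblast markers were called higher for 8 of 10 in CKD TRF and 9 of 10 in CKD, with sums of 854 to 962 in CKD TRF, 1014 to 1197 in CKD and 219 to 229.8 in Control. Proximal tubule genes went the other way, with 7 of 12 called lower in CKD TRF and 8 of 12 in CKD, among them Hnf4a, the factor of mature proximal tubule, at -0.96 ± 0.10 in CKD TRF (limma adjusted p = 2.8e-07) and -1.09 ± 0.10 in CKD (2.9e-08). Of 9 tested fat markers 4 were called higher and 2 lower in CKD TRF, and 5 higher and 2 lower in CKD. The 2 lower in both were Lpl and Pck1, which kidney cells also express. The 10 listed fat genes summed to 1669 to 2387 scaled reads in CKD TRF, 1904 to 2912 in CKD and 2636 to 3545 in Control, while the 6 fat-only markers summed to 0.398 to 131 in CKD TRF, 4.53 to 386 in CKD and 0 to 1.29 in Control. The part of these cell types in the SOX changes was not tested. In such whole-tissue RNA, a change in how many cells carry a transcript and a change in RNA per cell cannot be told apart.

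Within CKD the highest and the lowest Sox9 level both fell in libraries with high fat and urothelium sums. CKD 2 and CKD 4 had the highest urothelium sums, 193 and 146 scaled reads, and stood at 55.1 and 23.4 scaled reads of Sox9. With a covariate made of the 6 fat-only and the urothelium markers, Sox9 stood at 2.15 ± 0.38 in CKD TRF and 2.93 ± 0.38 in CKD against Control, and Sox11 at 2.06 ± 0.36 in CKD TRF and 3.12 ± 0.36 in CKD, all 4 still called.

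**Figure D4:**
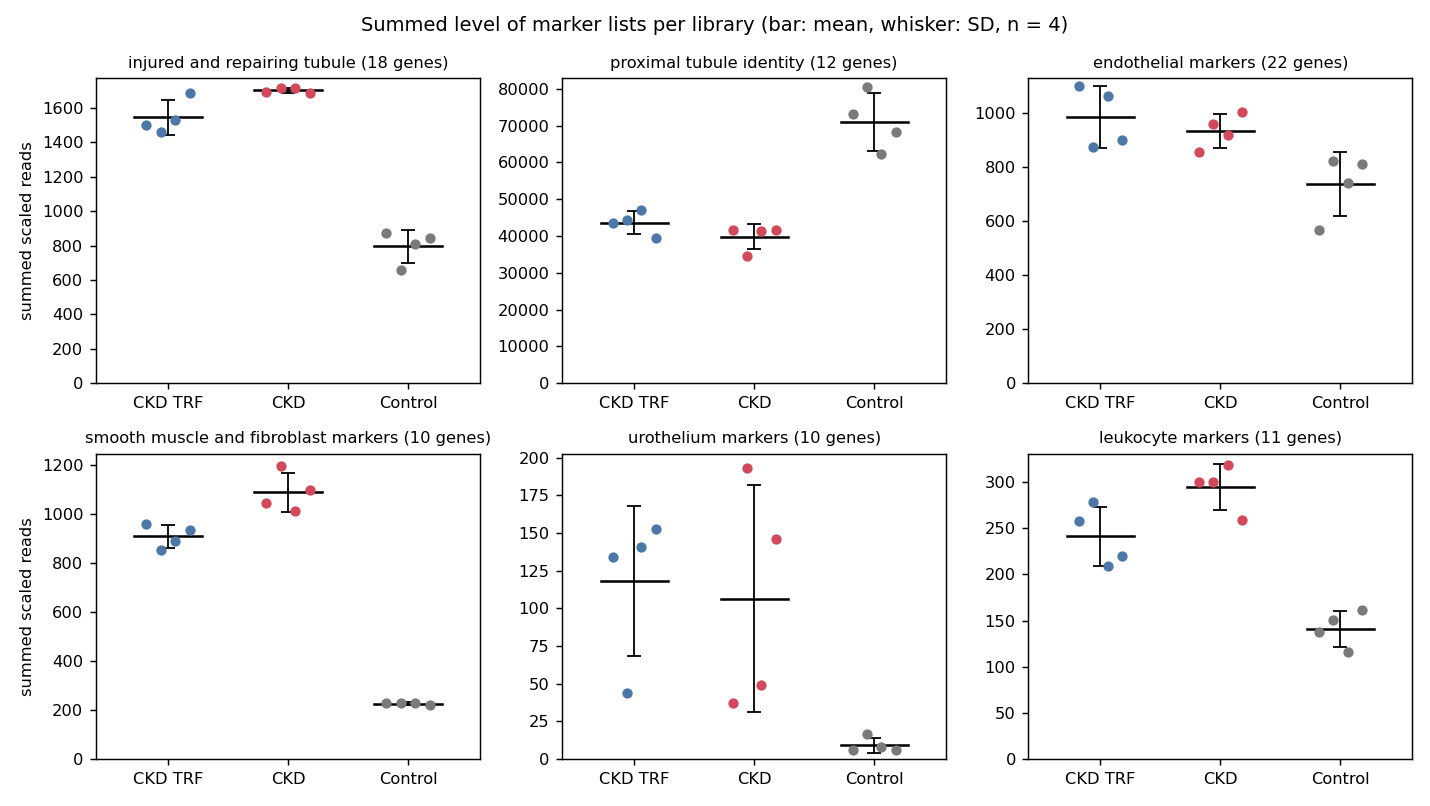
Summed level of each marker list in each library (vertical axis, scaled reads) by group, for 6 lists, with points for libraries, bars for means and whiskers for SD. Urothelium, leukocyte, smooth muscle and fibroblast sums have all diseased libraries above Control, and proximal tubule sums have all of them below. The proximal tubule sums are mostly Kap.

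Sox17, the SOXF factor of arterial endothelium, was the vascular member that rose. It lies at chr1:4490931-4497354 (minus strand). Its levels were 6.59, 9.88, 6.74 and 7.16 scaled reads in CKD TRF, 5.51, 9.08, 7.66 and 8.65 in CKD, and 4.08, 3.23, 5.10 and 4.02 in Control. Both diseased groups lay above Control and overlapped each other almost fully. The change was 0.75 ± 0.20 in CKD TRF and 0.77 ± 0.20 in CKD against Control (limma adjusted p = 0.00561 and 0.00373), and -0.02 ± 0.20 in CKD TRF against CKD (0.991). Both calls were lost under quantile normalization (0.49 in CKD TRF and 0.48 in CKD, limma adjusted p = 0.0588 and 0.0568). Without the 5 libraries with fat RNA the change in CKD was 0.57 (limma adjusted p = 0.118). That in CKD TRF then rested on CKD TRF 2, the library with most Sox17, at a larger 1.10 with limma adjusted p = 0.0506. Both calls were also lost with the fat and urothelium covariate (0.71 in CKD TRF and 0.73 in CKD, limma adjusted p = 0.0659 and 0.0518). Those values were close to the 0.75 and 0.77 as reported. The urothelium sums behind the covariate were 5.61 to 16.4 scaled reads in Control, 44.0 to 153 in CKD TRF and 37.3 to 193 in CKD. Covariate and disease therefore cannot be fully told apart.

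Sox18, which drives lymphatic fate in mouse embryos, rested on single Control libraries. The gene lies at chr2:181669836-181671640 (minus strand). Its levels were 0, 0.133, 0.597 and 0.854 scaled reads in CKD TRF, 0.648, 0.728, 0.348 and 0.131 in CKD, and 6.84, 1.29, 0.255 and 1.83 in Control. Control 1 stood far above the rest, Control 3 lay inside the range of the diseased libraries, and CKD TRF 1, CKD TRF 2 and CKD 4 lay below the worth of 3 reads. The read numbers were 0 to 13 in CKD TRF, 2 to 13 in CKD and 3 to 67 in Control. The change was -1.06 ± 0.40 in CKD TRF against Control (limma adjusted p = 0.0397) and -0.97 ± 0.40 in CKD against Control (0.0514). Without Control 1 it was -0.57 in CKD TRF (limma adjusted p = 0.2) and -0.48 in CKD (0.265). In limma voom it was -2.51 in CKD TRF and -1.73 in CKD, and neither was called. The gene was called in CKD TRF under 8 of 21 alternatives and in CKD under 3 of 21, one of them without Control 3 (-1.36, limma adjusted p = 0.00548).

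Sox7, the third SOXF gene, lies at chr14:63943673-63950732 (plus strand) and was carried by few reads. Its levels were 1.58, 0.398, 1.73 and 1.18 scaled reads in CKD TRF, 1.82, 1.23, 1.97 and 0.919 in CKD, and 1.23, 1.29, 1.19 and 2.10 in Control, on 6 to 34 reads per library. All 3 groups overlapped. The changes of -0.17 ± 0.26 in CKD TRF and 0.01 ± 0.26 in CKD against Control did not pass (limma adjusted p = 0.636 and 0.973). Without the 5 libraries with fat RNA, CKD TRF 2, the lowest of all 12, stood for its group, and the change was -0.80 against Control and -1.05 against CKD, where all libraries gave -0.19 ± 0.26 against CKD. In neither was it called (limma adjusted p = 0.201 and 1). Without CKD TRF 2 the change was 0.03 against Control and 0.02 against CKD. The 3 SOXF genes were not called alike: Sox17 was called higher in both diseased groups, Sox18 was called lower in CKD TRF, and Sox7 was not called. The call of Sox18 held under 8 of 21 alternatives, and each call of Sox17 under 18 of 22. A difference in direction between the 3 genes was not tested.

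Sox13, the SOXD gene, lies at chr1:133382303-133424377 (minus strand). It stood at 17.1, 9.15, 15.5 and 13.4 scaled reads in CKD TRF, 18.4, 16.2, 18.2 and 17.1 in CKD, and 13.8, 19.6, 19.7 and 17.0 in Control. The groups overlapped, with CKD TRF 2 the lowest library. Its change was 0.01 ± 0.17 in CKD against Control (limma adjusted p = 0.977), -0.35 ± 0.17 in CKD TRF against CKD (0.783) and -0.35 ± 0.17 in CKD TRF against Control (0.12). Both of the last values were -0.18 without CKD TRF 2. Without the 5 libraries with fat RNA, where CKD TRF 2 alone stands for its group, they were -0.93 against CKD and -0.86 against Control (limma adjusted p = 1 and 0.0537). Sox13 and Sox7 were both lowest in CKD TRF 2, and their deviations from group means had an r of 0.67, the highest of any pair of the 8. Sox17 was highest in CKD TRF 2, and its deviations had an r of -0.55 with those of Sox13 and -0.67 with those of Sox7.

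Targets and partners of the SOXF genes in vessels were higher where they were called at all. Of 14 tested genes 7 were called higher in CKD TRF, where 19.5% of all genes were, and 10 in CKD, where 23.6% were, with none lower. Their median change was 0.59 in CKD TRF and 0.67 in CKD, where that of all genes was 0.01 in CKD TRF and 0.02 in CKD. Vcam1, an adhesion molecule of activated endothelium that injured tubule cells also carry, stood at 36.4 to 74.4 scaled reads in CKD TRF, 54.5 to 73.8 in CKD and 8.58 to 13.9 in Control. Pdpn, podoplanin of lymph vessels and podocytes, rose by 1.57 ± 0.12 in CKD TRF and 1.59 ± 0.12 in CKD against Control (limma adjusted p = 7.6e-09 and 3.4e-09). Prox1, the lymphatic master factor that Sox18 activates in mouse embryos, stood at 0.82 ± 0.34 in CKD TRF against Control, which did not pass (limma adjusted p = 0.0656), and rose by 1.16 ± 0.34 in CKD (0.00909). It had 1.79 to 5.37 scaled reads in CKD TRF, 2.79 to 6.21 in CKD and 0.276 to 3.23 in Control. Lyve1, also listed, was not called, at 0.46 ± 0.36 in CKD TRF and 0.39 ± 0.36 in CKD (limma adjusted p = 0.334 and 0.399). Flt4 was called in CKD only, at 0.63 ± 0.21 (limma adjusted p = 0.0206), against 0.40 ± 0.21 in CKD TRF (0.155).

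General markers of endothelium were set beside the SOXF genes. Of 22 tested markers 11 were called higher in CKD TRF, where 19.5% of all genes were, and 10 in CKD, where 23.6% were, with none lower. Their median change was 0.43 in CKD TRF and 0.37 in CKD, where that of all genes was 0.01 in CKD TRF and 0.02 in CKD. Not called were 11 in CKD TRF and 12 in CKD. Fli1, an ETS factor of endothelium and blood cells, rose by 1.13 ± 0.16 in CKD TRF and 1.48 ± 0.16 in CKD (limma adjusted p = 2.4e-05 and 6.6e-07). Erg, also listed and named here after its values were seen, went the other way without a call. It stood at -0.30 ± 0.21 in CKD TRF and -0.45 ± 0.21 in CKD (limma adjusted p = 0.281 and 0.0956). Vwf, von Willebrand factor, had 0.729 to 5.13 scaled reads in CKD TRF, 1.68 to 5.77 in CKD and 0 to 0.730 in Control. Kdr, the main receptor for vascular endothelial growth factor, had 111 to 143 scaled reads in CKD TRF and 79.8 to 101 in CKD. Ecscr, an endothelial surface protein, had 4.89 to 6.05 scaled reads in CKD TRF and 7.49 to 9.02 in CKD. The groups did not overlap for either gene, but neither change passed, at 0.38 ± 0.14 for Kdr and -0.52 ± 0.25 for Ecscr (limma adjusted p = 0.705 and 0.783). Of the 22 markers, 2 were higher and 1 was lower without overlap in CKD TRF against CKD. Of all tested genes 2.13% were lower without overlap, and the share higher without overlap is not given here. The summed level of the 22 markers was 877 to 1103 scaled reads in CKD TRF, 857 to 1004 in CKD and 568 to 825 in Control, and Control 1, the library with most Sox18, had the lowest sum of all 12.

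Of the 12 other SOX family genes listed, 3 were tested and 2 were called, 1 higher and 1 lower, in each comparison with Control. Of all tested genes 37.5% were called in CKD TRF and 45.4% in CKD against Control. Sox5, a SOXD gene and partner of Sox9 in cartilage, had 10.7 to 15.1 scaled reads in CKD TRF, 12.3 to 16.5 in CKD and 4.24 to 8.67 in Control. It rose by 1.01 ± 0.20 in CKD TRF and 1.18 ± 0.20 in CKD against Control (limma adjusted p = 4.6e-04 and 6.3e-05), a change between those of Sox4 and Sox9. Sox15, the only member of the SOXG group, had 98.6 to 116 scaled reads in CKD TRF, 89.2 to 108 in CKD and 115 to 163 in Control, and fell by 0.35 in CKD TRF (limma adjusted p = 0.0129) and by 0.50 in CKD (7.3e-04). The third, the SOXD gene Sox6, was not called.

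The genes whose pattern over the 12 libraries was most like that of each SOX gene were ranked by Pearson r among 7682 genes with a mean of at least 4 on the log2 scale. These r are the highest of many, over libraries that share groups and scaling, and serve as descriptions. For Sox9 they were Dsg2, a desmosomal cadherin (0.989), Foxj2 (0.985) and Col5a2, a chain of type V collagen (0.985), and Dsg2 also led when deviations from group means were compared (0.947). For Sox4 they were the adhesion molecule Ncam1 (0.977), Clu, clusterin (0.975), and Sbno2 (0.970). For Sox11 they were Fosl2, a subunit of AP-1 (0.962), Dpysl3 (0.955) and Zswim6 (0.954). For Sox12 the first was Acap2 (0.933), for Sox17 Pmvk, an enzyme of the mevalonate pathway (0.942), and for Sox18 Ehhadh, a peroxisomal enzyme of fatty acid oxidation (0.952). For the genes without calls, Cflar led for Sox13 (0.902) and Brd1 for Sox7 (0.835).

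**Figure D5:**
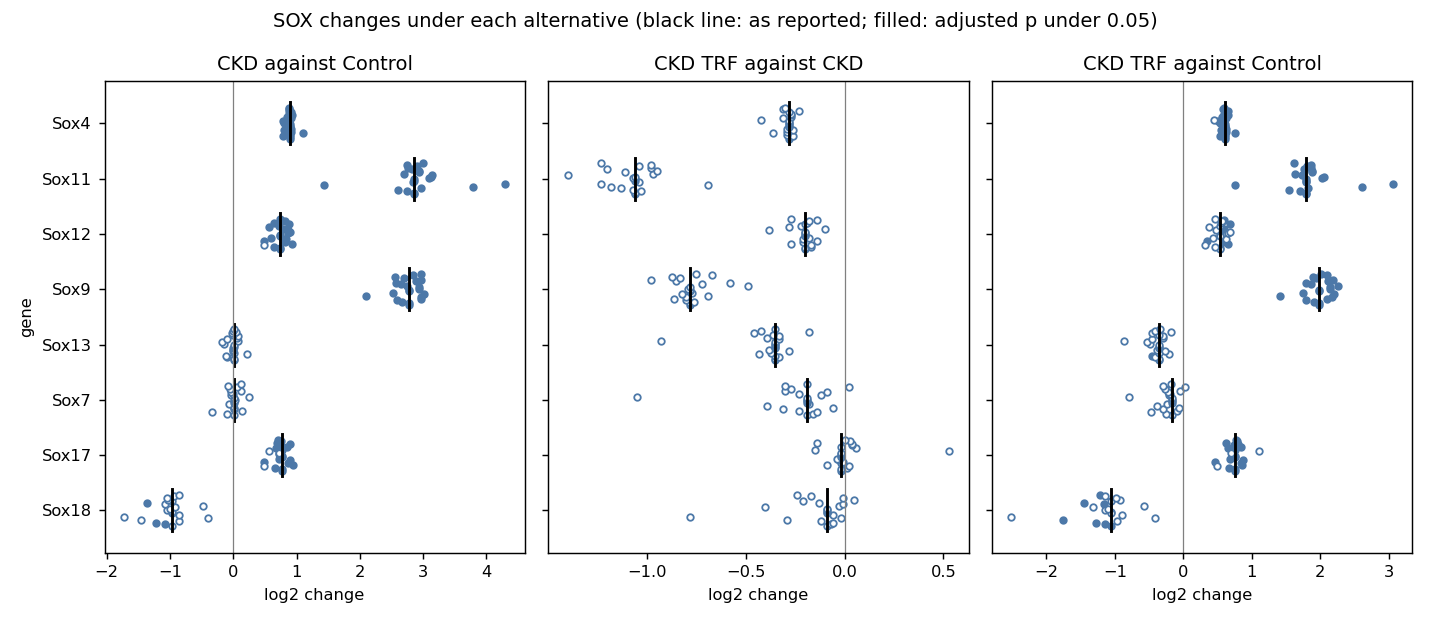
Log2 change of each SOX gene under every alternative setting and left-out library (circles, filled where the adjusted p was under 0.05) around the value as reported (black line), by comparison; the horizontal axis is the log2 change. Sox4, Sox9 and Sox11 stay above 0 in both comparisons with Control, while Sox7 and Sox13 scatter around 0 in CKD against Control.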

How the data were processed

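Kidney RNA taken up in Trizol was made into libraries with a Lexogen Quant-Seq kit, which reads 3′ ends, per the labels' protocols. The submitters' processing notes name Bowtie2, bedtools and the build mm10 only. The deposited files hold 1 log2 value per gene, which the authors had scaled by a method not given in the sources used here. From the values, they are log2 of a scaled read number plus 1: in each library 98.4% to 100.0% of values below 20 scaled reads were whole read numbers to within 0.1, and these reads were recovered. For 35 symbols with several entries, only the entry with most signal on average was used. The 60% of genes with the highest mean entered the test (13943, mean at least 0.729) in 1 model of 3 group means in limma 3.58.1 (R 4.3.3, prior spread following the mean, two-sided), with Benjamini-Hochberg adjustment and a threshold of 0.05. Alternatives were scaling, pseudocount, filter, limma voom on recovered reads, weights, covariates and left-out libraries. The members, the gene lists, the naming rule and the alternatives were chosen with earlier results of these data known. Named from each list were at most 4 called genes of largest change per comparison, or at most 2 where none was called. Some list genes that were not called or went the other way were named beyond this rule, after their values were seen. Same-numbered libraries did not deviate together (correlations -0.18 to 0.11 over 12 pairs), so numbers were not used as pairs. Gene positions are from GENCODE (mm10) and promoters from RefSeq.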

Additional observations from a re-analysis of the deposited data

Results flagged for a closer look

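A library far from the others of its group was looked for in each SOX gene and group, 24 groups of 4 libraries in all, with Dixon's test at its usual critical value. It picked out 2 groups, and chance alone picks out about 1 in 20.

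In CKD, Sox4 was lowest in CKD 1, at 5.67 on the log2 scale, with the other 3 CKD libraries close together at 54.3 to 55.0 scaled reads against 49.9 in CKD 1. That library was still above every CKD TRF library and every Control library for Sox4. In Control, Sox7 was highest in Control 4, at 1.63 on the log2 scale, or 2.10 scaled reads against 1.19 to 1.29 in the other 3. The cause of either was not tested.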

How the results depend on the processing

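Beside the values as reported, 12 planned and 2 added alternatives and 12 fits without 1 library each were run. The 2 added ones, a covariate of 6 fat-only and the urothelium markers and the fit without the 5 libraries with fat RNA, were chosen after seeing the data, since the planned rule on the whole fat list left out no library. Over the 24 results of the 8 SOX genes this gave 522 values, of which 452 kept their direction and their side of the threshold, 37 lost a call, 4 gained one and 29 changed sign. Sox9 and Sox11 kept their direction and calls against Control in all of them. Without the 5 libraries, values of CKD TRF rest on CKD TRF 2 alone, with its spread assumed from the other groups. The first covariate includes fat genes that kidney itself holds, such as Pck1, Fabp4 and Lpl. Both covariates include urothelium markers, whose sums in every diseased library lay above those of Control. The cause of the changes below was not tested.

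For CKD against Control, 4165 genes were called with the fat and urothelium covariate, 3516 with the added covariate and 4037 without the 5 libraries. Sox17 lost its call with these (0.73, 0.72 and 0.57) and under quantile normalization (0.48), which also ended that of Sox12 (0.49). Sox18 gained a call by median centring (-1.07) and quantile normalization (-1.22). Sox13 changed sign by median centring (-0.10), quantile normalization (-0.11), voom (0.00 after rounding) and both covariates (-0.14 and -0.18). Sox7 did so by median centring (-0.09), quantile normalization (-0.33), voom (0.00) and sample weights (-0.06). For CKD TRF against CKD, Sox17 changed sign by median centring (0.01), quantile normalization (0.02) and without the 5 libraries (0.53).

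For CKD TRF against Control, 3161 genes were called with the fat and urothelium covariate, 2481 with the added one and 1478 without the 5 libraries. Sox12 lost its call with no filter (0.54), median centring (0.46), quantile normalization (0.32), voom (0.63), sample weights (0.43), 2 groups only (0.54), both covariates (0.66 and 0.69) and without the 5 libraries (0.48). Sox18 lost it with equal sums (-0.97), a pseudocount of 5 (-0.42), voom (-2.51), sample weights (-0.90), 2 groups only (-1.06), both covariates (-1.14 and -1.10) and without the 5 libraries (-1.32). Sox17 lost it by quantile normalization (0.49), both covariates (0.71 and 0.70) and without the 5 libraries (1.10), and Sox4 only in the last (0.45). Sox13 gained a call by quantile normalization (-0.45).

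With 1 library left out, 5388 to 6265 genes were called in CKD against Control, 0 to 1 in CKD TRF against CKD (1 without CKD TRF 1) and 4396 to 5150 in CKD TRF against Control. In CKD against Control, Sox13 ranged from -0.10 to 0.07, Sox7 from -0.08 to 0.13 and Sox18 from -1.36 to -0.48. In CKD TRF against CKD, Sox17 ranged from -0.15 to 0.06, Sox7 from -0.30 to 0.02 and Sox18 from -0.24 to 0.05. In CKD TRF against Control, Sox7 ranged from -0.29 to 0.03. There Sox12 ranged from 0.37 to 0.68, with its call lost without Control 2 or 3 or CKD TRF 1, 2 or 4. Sox18 ranged from -1.45 to -0.57, with its call lost without Control 1 or 4 or CKD TRF 1, 2 or 3.

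With the replicate number as a block, 0 genes were called in CKD TRF against CKD, 5033 in CKD TRF and 6131 in CKD against Control, and Sox9 stood at 2.77 ± 0.28 in the last of these (limma adjusted p = 9.5e-07). The block changed no SOX call. In 3 of 12 same-number pairs, the libraries correlated best with their own number. The low read numbers of Sox7, Sox18 and, in Control, Sox11 limit the precision of their changes. Sox7 and Sox18 were not tested under the filter at a mean of at least 2.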
